A study of Arabidopsis thaliana with 9 samples.

Results

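The morning clock MYB and LNK genes of Arabidopsis thaliana were described in wild type and in mutants of the spliceosome proteins SmD1b and PRP39a. They are 8 loci of the 34212 in the table of transcript values, and all of the 8 are in it. In the RefSeq annotation of assembly TAIR10.1, CCA1 (AT2G46830) spans chromosome 2, 19245591 to 19248915, and LHY (AT1G01060) chromosome 1, 33365 to 37871. RVE1 (AT5G17300) spans chromosome 5, 5690225 to 5692992, RVE4 (AT5G02840) 648648 to 651979 and RVE6 (AT5G52660) 21359001 to 21362273 of the same chromosome. RVE8 (AT3G09600) spans chromosome 3, 2946239 to 2949017, LNK1 (AT5G64170) chromosome 5, 25672466 to 25676823, and LNK2 (AT3G54500) chromosome 3, 20175370 to 20179070. The genes were chosen by name, with earlier results of these data known. Every transcript isoform carrying a member's locus identifier was taken, 82 of the 82190 isoforms. Polyadenylated RNA came from whole seedlings, 14 days old, grown on 1/2MS medium, with 3 biological replicates of each genotype. Wild type was the accession Col-0. The smd1b group carried the allele smd1b-3, and the prp39a group the allele prp39a-3 (SAIL_1249A03). Each mutant group is thus 1 allele. The time of day at which seedlings were harvested is not given in the sources used here, and clock transcripts differ over the day; its part in the results was not tested.

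The morning loop opens the daily cycle of the plant clock. CCA1 and LHY are related MYB-like proteins that accumulate around dawn and repress genes of the later day by binding their promoters. RVE4, RVE6 and RVE8 have a related MYB-like domain but activate such evening genes, and LNK1 and LNK2 are co-activators without a DNA-binding domain of their own that these RVE proteins recruit. RVE1 belongs to the same MYB-like family and links the clock to auxin production and to the greening of seedlings.

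All values are TPM (transcripts per 1000000), a measure scaled by transcript length, so levels of different genes can be set side by side. TPM keep no read depth, and a fall in the number of cells that express a gene cannot be told apart from less RNA per cell. SMD1B had at most 0.1385 TPM in each smd1b library and at least 49.97 TPM in each other one, and PRP39A had 5.44 to 5.58 TPM in prp39a and at least 48.5 TPM elsewhere. The seedling label was met by markers of green shoot (3 of 3 genes expressed, summed 11380 to 16228 TPM) and of root (7 of 10 with a mean of at least 1 TPM). The 5 floral markers summed to 1.44 TPM or less, and none was at 0 in all libraries. Summed root markers were 2595 to 3354 TPM in the wild type, 2665 to 3427 TPM in smd1b and 1928 to 2484 TPM in prp39a. Nearly all of this sum was PYK10, a root and hypocotyl glucosidase (2509 to 3203, 2600 to 3322 and 1861 to 2323 TPM). EXP7, COBL9 and CASP1 of the same list were highest in prp39a replicate 3 and next highest in wild-type replicate 2 (CASP1 81.1 and 80.7 TPM). No other gene of the list had this order. RHD6 was highest in wild-type replicate 2 (6.486 TPM), then in smd1b replicate 1 (6.163 TPM) and prp39a replicate 3 (6.128 TPM). SHR had 6.711 to 7.854 TPM in the wild type. It was lower without overlap in smd1b (4.603 to 5.749 TPM) and in prp39a (5.418 to 6.471 TPM). The part of the PYK10 and SHR differences in the results below was not tested.

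The sequence just before the annotated start of each gene was read from the reference genome, in its RefSeq assembly TAIR10.1, as 300 bases ending at the base before the gene. Matches to 3 motifs were sought on both strands: the G-box CACGTG, bound by light-signalling factors and pseudo-response regulator complexes, the evening element AAAATATCT and the CCA1-binding site AAAAATCT. The G-box was in the window of 3 of the 8 genes, CCA1, LHY and RVE1, and in 6.45% of the 33047 windows of all genes. The CCA1-binding site was in that of RVE6 and in 7.6% of all windows, and the evening element was in none of the 8 and in 2.64% of all windows. The first sequence shown is the whole window of CCA1, the member with the largest measured change in smd1b (chromosome 2, plus strand, chr2:19245291-19245590). The second is the window of LNK4, whose profile over the 9 libraries was closest to that of CCA1 (plus strand, chr5:2166820-2167119). The shorter stretches hold the matches of LHY (chr1:37931-37966, minus strand), RVE1 (chr5:5693083-5693118, minus strand), RVE6 (chr5:21362309-21362346, minus strand) and of PORA (chr5:21992971-21993009, minus strand), an RVE1-linked output gene described further on. Each runs 5′ to 3′ on the strand of its gene, and capitals mark the motif.
CCA1: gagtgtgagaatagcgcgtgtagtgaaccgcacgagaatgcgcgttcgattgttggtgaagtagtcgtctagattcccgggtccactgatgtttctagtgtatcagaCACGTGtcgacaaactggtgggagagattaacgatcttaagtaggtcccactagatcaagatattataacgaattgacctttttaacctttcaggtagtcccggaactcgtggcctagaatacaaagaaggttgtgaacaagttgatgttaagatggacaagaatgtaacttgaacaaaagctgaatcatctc
LNK4: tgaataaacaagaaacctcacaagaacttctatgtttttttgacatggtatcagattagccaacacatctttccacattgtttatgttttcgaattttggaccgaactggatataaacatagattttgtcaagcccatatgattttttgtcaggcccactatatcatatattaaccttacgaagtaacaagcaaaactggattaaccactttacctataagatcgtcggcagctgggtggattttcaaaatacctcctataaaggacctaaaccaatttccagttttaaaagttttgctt
LHY: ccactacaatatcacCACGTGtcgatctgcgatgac
RVE1: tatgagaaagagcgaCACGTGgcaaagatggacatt
RVE6: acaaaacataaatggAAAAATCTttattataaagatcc
PORA: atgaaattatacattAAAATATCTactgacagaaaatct
These matches describe letters only. The window of LNK4 held none of the 3 motifs. Windows were also read for the genes of the other lists below that passed in a comparison. Of these, PRR7 and PAP2 had a G-box and LNK3 had 2. LHCB1.1 had a CCA1-binding site, and PORA and COL2 had an evening element. The rest had no match.

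In wild type the 8 genes spanned from 1.42 ± 0.248 TPM (SD, n = 3) for LHY to 61.9 ± 0.503 TPM for RVE4. Below RVE4 came LNK2 at 48.9 ± 2.32 TPM, LNK1 at 12.7 ± 1.78 TPM, RVE6 at 9.42 ± 0.306 TPM, CCA1 at 7.78 ± 0.835 TPM, RVE8 at 3.71 ± 0.167 TPM and RVE1 at 2.05 ± 0.478 TPM. Neighbours in this order did not overlap between their 3 libraries, except RVE1 and LHY. RVE4 thus made up 82.5% ± 0.556 of the summed TPM of the activators RVE4, RVE6 and RVE8 in wild type, 79.0% ± 0.353 in smd1b and 82.7% ± 0.682 in prp39a. In smd1b the order of means was the same, but the ranges of CCA1 and RVE8 overlapped. In prp39a RVE6 stood above LNK1, with overlapping ranges, and CCA1 overlapped RVE8 and RVE8 overlapped RVE1.

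**Figure D1:**
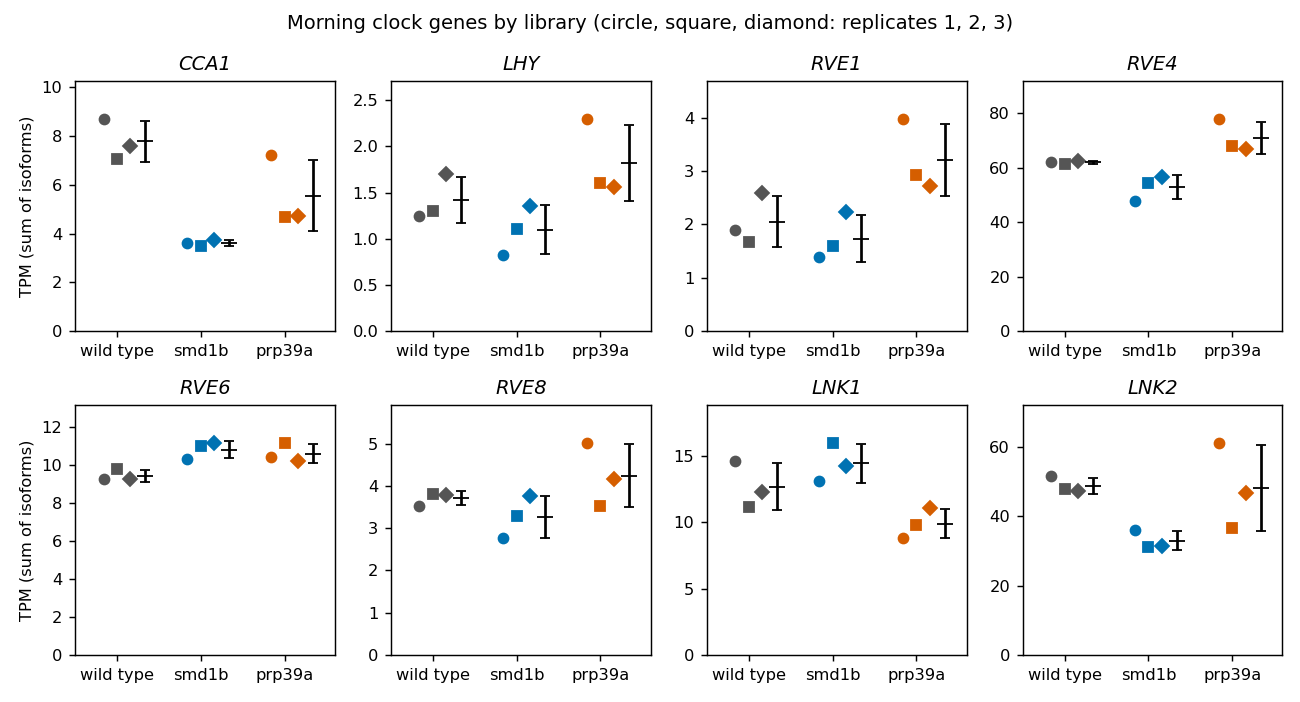
TPM of each gene (vertical axes, starting at 0) in the 3 libraries of wild type, smd1b and prp39a; marker shape gives the replicate, and the bar is the mean ± SD. CCA1 lies between 3.495 and 3.75 TPM in smd1b, below every library of the other groups, and prp39a replicate 1 is the highest of its group for 6 of the 8 genes.

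The comparison of each mutant with wild type asked which of these transcripts differed in its seedlings. Among the repressors, CCA1 had 8.69, 7.05 and 7.59 TPM in wild type replicates 1, 2 and 3, and 3.61, 3.495 and 3.75 TPM in smd1b. In prp39a it had 7.23, 4.69 and 4.71 TPM. The smd1b libraries lay close together and below all others, while prp39a replicate 1 lay within the wild-type range and the other prp39a libraries below it. CCA1 fell in smd1b to 46.5% of wild type (log2 fold change −1.003 ± 0.155 SE on the log2(TPM + 0.5) scale, limma adjusted p = 0.00821). In prp39a it stood at 71.3% of wild type, which did not pass (−0.47 ± 0.155 SE, adjusted p = 0.115). Without prp39a replicate 1 it did pass (−0.66, adjusted p = 0.0367). LHY, its close relative, had 1.25, 1.30 and 1.70 TPM in the wild type, 0.826, 1.11 and 1.36 TPM in smd1b, and 2.29, 1.61 and 1.57 TPM in prp39a. Both mutants overlapped wild type, and LHY passed in neither (adjusted p = 0.44 and 0.41). Its interval in smd1b ran from −0.69 to 0.16 on the log2 scale. The ratio of CCA1 to LHY was 4.46 to 6.97 in wild type, 2.76 to 4.38 in smd1b and 2.92 to 3.15 in prp39a.

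RVE1 had 1.90, 1.67 and 2.59 TPM in the wild type, 1.38, 1.59 and 2.23 TPM in smd1b, and 3.97, 2.93 and 2.71 TPM in prp39a. The prp39a libraries were the 3 highest of the 9. The change in prp39a did not pass (log2 fold change 0.54 ± 0.2 SE, adjusted p = 0.149), nor did that in smd1b (−0.19 ± 0.2 SE, adjusted p = 0.604).

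Of the activators, RVE4 was the steadiest gene in wild type, with 61.9, 61.4 and 62.4 TPM. It had 47.9, 54.4 and 56.5 TPM in smd1b and 77.7, 68.0 and 66.7 TPM in prp39a. The mutants lay on opposite sides of wild type with no overlap, yet neither change passed (−0.23 ± 0.0814 SE, adjusted p = 0.134 in smd1b; 0.19 ± 0.0814 SE, adjusted p = 0.196 in prp39a). RVE6 had 9.25 to 9.78 TPM in the wild type, 10.3 to 11.1 TPM in smd1b and 10.2 to 11.2 TPM in prp39a. Both mutant groups were above the wild-type range by a small step that did not pass (adjusted p = 0.145 and 0.203). RVE8, an activator whose dose sets the pace of the clock, had 3.52 to 3.82 TPM in wild type. It had 2.76 to 3.75 TPM in smd1b and 3.54 to 5.02 TPM in prp39a, overlapping wild type in both (adjusted p = 0.522 and 0.519). The summed TPM of the 3 activators over that of CCA1 and LHY was 7.51, 8.98 and 8.12 in wild type, 13.7, 14.9 and 14.0 in smd1b and 9.78, 13.1 and 12.9 in prp39a. The ratio in both mutants lay above every wild-type library, and it is a description without a test.

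LNK1 and LNK2 did not share a pattern of levels. LNK2 had 51.5, 47.8 and 47.3 TPM in the wild type and 36.2, 31.2 and 31.5 TPM in smd1b, with no overlap. It had 61.2, 36.5 and 46.6 TPM in prp39a, on both sides of the wild-type values. LNK2 in smd1b stood at 67.5% of wild type and did not pass (−0.56 ± 0.157 SE, adjusted p = 0.0671). LNK2 in smd1b passed in 4 of 17 alternatives. These were a fit of the 6 wild-type and smd1b libraries alone (adjusted p = 0.0127) and the replicate block (0.04895). The others were the fits without prp39a replicate 1 (0.0236) and without prp39a replicate 2 (0.024). All 9 libraries shared 1 estimate of spread in the main fit, and its part in this was not tested. LNK1 had 14.6, 11.2 and 12.3 TPM in the wild type, 13.1, 16.0 and 14.3 TPM in smd1b, and 8.82, 9.84 and 11.1 TPM in prp39a. All prp39a libraries lay below wild type, a difference that did not pass (−0.34 ± 0.122 SE, adjusted p = 0.142), and smd1b overlapped wild type (0.18 ± 0.122 SE, adjusted p = 0.405). LNK2 exceeded LNK1 by 3.52 to 4.29 times in wild type, 1.95 to 2.76 times in smd1b and 3.71 to 6.94 times in prp39a.

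In count, limma's test over all genes called 1 of the 8 genes in smd1b, CCA1, where it called 6.63% of all tested genes. Of all genes 3.57% were called higher and 3.06% lower there. It called 0 of 8 in prp39a, against 4.13% of all genes (1.73% higher, 2.39% lower), with 5 of 8 at an unadjusted p under 0.05, as for 23.7% of all genes. In smd1b this held for 4 of 8 and 23.4% of all genes. The 3 smd1b libraries did not overlap those of wild type for 4 of the 8, 1 higher and 3 lower, against 30.3% of all genes (17% higher, 13.3% lower). For prp39a this held for 4 of 8, 3 higher and 1 lower, against 28.1% (9.42% higher, 18.6% lower). The median log2 fold change of the 8 was −0.21 in smd1b and 0.16 in prp39a, where the median of all tested genes was 0.02 and −0.07. Over all genes 357 were called higher and 493 lower in prp39a, and 610 and 387 with size factors. Both comparisons use the same 3 wild-type libraries.

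Set directly against each other, the mutants differed at 5 of the 8 genes, where limma called 21.1% of all tested genes, 6.39% higher and 14.7% lower. CCA1 (log2 fold change 0.53 ± 0.155 SE, adjusted p = 0.041), RVE1 (0.73 ± 0.2 SE, adjusted p = 0.0319), RVE4 (0.42 ± 0.0814 SE, adjusted p = 0.00943) and LNK2 (0.51 ± 0.157 SE, adjusted p = 0.0476) were higher in prp39a than in smd1b. LNK1 was lower in prp39a (−0.52 ± 0.122 SE, adjusted p = 0.0185). Groups did not overlap for 6 of the 8, LHY included, 5 higher and 1 lower, against 39.7% of all genes (12.5% higher, 27.2% lower). LHY (adjusted p = 0.0725) and RVE8 (0.128) lay higher in prp39a without passing, and 7 of the 8 had an unadjusted p under 0.05, as did 36.7% of all genes. RVE6 differed by −0.03 with an interval from −0.18 to 0.13. Over all genes 1316 were higher in prp39a and 3020 lower, but 2144 higher and 2065 lower with size factors, under which 4 of the members were again called higher and 1 lower.

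Except for RVE4, which passed in all 17 alternatives (adjusted p up to 0.0338), these calls lay near the threshold and were lost in several alternatives. Leaving out a wild-type library moved the p alone, since the log2 differences (CCA1 0.53, LNK2 0.51) do not use it. Without single smd1b libraries CCA1 stayed at 0.51 to 0.55 and LNK2 at 0.47 to 0.58. Without prp39a replicate 1 the differences were smaller, 0.34 for CCA1, 0.32 for LNK2, 0.59 for RVE1 and −0.45 for LNK1. Without prp39a replicate 1 only RVE4 passed, and CCA1 (0.0869), RVE1 (0.108), LNK1 (0.068) and LNK2 (0.107) did not. Without smd1b replicate 2 again RVE4 alone passed (CCA1 0.0904, RVE1 0.0755, LNK1 0.0529, LNK2 0.109), and the count was 2 without smd1b replicate 1 (CCA1 0.0951, RVE1 0.0989 and LNK2 0.0696 lost) or 3 (CCA1 0.0934, LNK1 0.0568 and LNK2 0.132 lost). Without wild-type replicate 2 or 3 it was 3, since CCA1 (0.0543 and 0.0601) and LNK2 (0.0672 and 0.0661) were lost, and LNK2 was also lost without wild-type replicate 1 (0.0636) and prp39a replicate 3 (0.0774), and RVE1 without prp39a replicate 2 (0.0602). Within prp39a, replicate 1 was highest for CCA1, LHY, RVE1, RVE4, RVE8 and LNK2 and lowest for LNK1. Within smd1b, replicate 3 was highest for 6 of the 8 genes and replicate 1 lowest for 6.

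**Figure D2:**
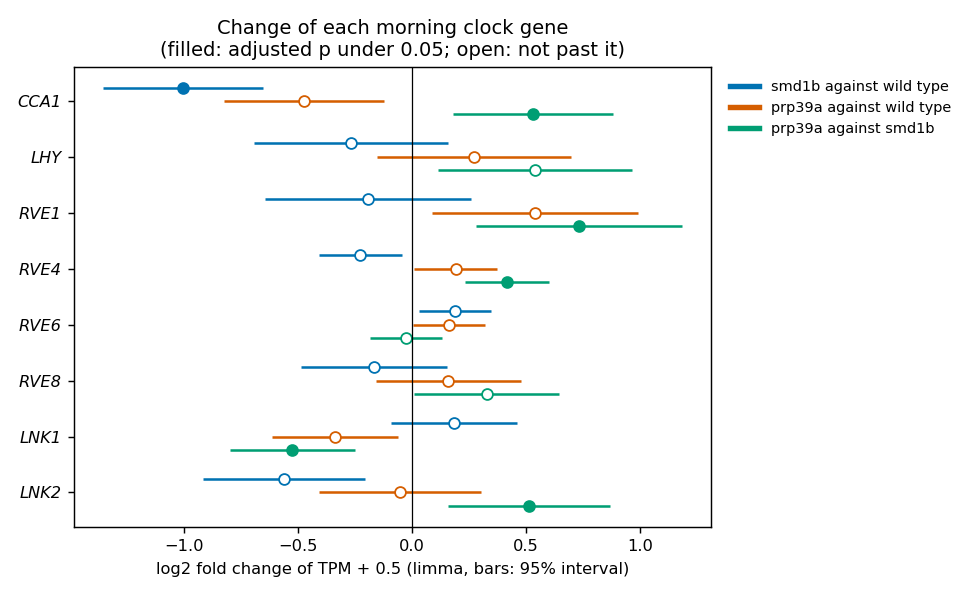
Log2 fold change of each gene on the log2(TPM + 0.5) scale (horizontal axis) with its 95% interval from limma, for each mutant against wild type and for the mutants against each other. Filled points passed an adjusted p of 0.05: CCA1 in smd1b, and CCA1, RVE1, RVE4, LNK1 and LNK2 between the mutants.

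The isoform comparison asked whether the mix of transcripts from each gene changed. The members had between 2 isoforms (RVE6) and 31 (LNK2) in the table, of which 3 were listed at 0 in all libraries and 40 were above 0 in all 9. Reads shared by isoforms are divided by estimation, so shares of similar isoforms are uncertain, and the table does not give their structures. Of the members' isoforms, 27 had a mean share of 0.05 to 0.95 of their gene and were tested against the rest of the gene. None passed in any of the 3 comparisons by limma, where 2.32% of all tested isoforms passed in smd1b, 10.7% in prp39a and 13.7% between the mutants. Unadjusted, 4, 2 and 5 of them had a p under 0.05. The share of all tested isoforms under this unadjusted threshold was not computed, so the counts have no background to be read against.

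RVE4 had the steadiest mix: its leading isoform AT5G02840_P1 held 75.4% to 80.2% of the gene in every library. AT2G46830_P1 led CCA1 with 87.9% ± 3.89 in wild type, 80.3% ± 10.11 in smd1b and 86.7% ± 6.86 in prp39a. The share of the second CCA1 isoform, AT2G46830_c1, was 12.7%, 8.498% and 9.265% in wild type and 12.03%, 15.9% and 28.2% in smd1b. Among smd1b libraries replicate 3 was the highest, and the change did not pass (adjusted p = 0.157). LHY shares scattered most: AT1G01060_P1 held 10.05% to 56.1% in wild type and 10.6% to 87.2% in smd1b, at levels of 0.77 TPM or less. RVE1's leading isoform AT5G17300_P1 held 79.4% to 90.9% in wild type, 76.4% to 100% in smd1b and 72.3% to 74.9% in prp39a, below both. The change in prp39a against wild type did not pass (log2 share change −0.51 ± 0.272 SE, limma adjusted p = 0.302). AT5G17300_P2 was at 0 in the wild-type libraries and in smd1b replicate 1. It held 18.1% and 7.29% in smd1b replicates 2 and 3. In prp39a it held 2.73% to 15.8%, at only 0.11 to 0.43 TPM. Against wild type it passed in neither smd1b (limma adjusted p = 0.371) nor prp39a (0.814). RVE6 was divided between AT5G52660_P2 (63.8% ± 10.3 in wild type) and AT5G52660_P1, with overlapping shares in all groups. LNK1 was likewise divided between AT5G64170_P2 and AT5G64170_P1, whose order differed between libraries in wild type and in prp39a, while P2 was the higher in all 3 smd1b libraries.

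RVE8 had 16 isoforms, and for some of them the shares did not overlap between genotypes. How often this held over all isoforms was not computed. AT3G09600_P1 held 46.0%, 43.8% and 35.0% in wild type, 47.4%, 41.1% and 39.0% in smd1b, and 20.2%, 16.5% and 34.9% in prp39a. The prp39a libraries lay below the others, replicate 3 only just, and the change against wild type did not pass (log2 share change −0.94 ± 0.288 SE, adjusted p = 0.0729) except without prp39a replicate 3 (adjusted p = 0.023). Between the mutants it also missed (−0.98, adjusted p = 0.0522), and it passed without that library (0.0186) and with a pseudocount of 1 TPM (0.0487). AT3G09600_P2 held 8.8%, 18.0% and 21.2% in wild type and 33.8%, 31.6% and 32.5% in smd1b, where it did not pass (0.96 ± 0.263 SE, adjusted p = 0.0932). In prp39a it held 23.3%, 18.4% and 11.9%, overlapping wild type (limma adjusted p = 0.9075). Between the mutants AT3G09600_P2 did not pass (−0.88 ± 0.263 SE, limma adjusted p = 0.0552). It passed there with a pseudocount of 1 TPM (0.0433) and without wild-type replicate 1 (0.0419). AT3G09600_ID14 held 5.04% to 9.25% in wild type, 1.6% to 2.32% in smd1b and 10.9% to 12.2% in prp39a, without overlap. Against wild type it passed in neither smd1b (limma adjusted p = 0.342) nor prp39a (0.589). Between the mutants it did not pass with a pseudocount of 0.5 TPM (0.61 ± 0.199 SE, adjusted p = 0.0767), against its own level of 0.05 to 0.55 TPM, and it passed with a pseudocount of 0.1 TPM (1.61, adjusted p = 0.00899). LNK2 spread its TPM over many isoforms. The leading one, AT3G54500_ID93, held 27.3%, 25.2% and 25.7% in wild type, 28.6%, 24.9% and 23.1% in smd1b and 32.2%, 39.7% and 33.0% in prp39a. The prp39a libraries were all above the rest, without passing against wild type (0.59 ± 0.207 SE, adjusted p = 0.113). AT3G54500_ID94 held 8.0% to 10.7% in wild type and 5.1% to 6.9% in smd1b (adjusted p = 0.23).

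**Figure D3:**
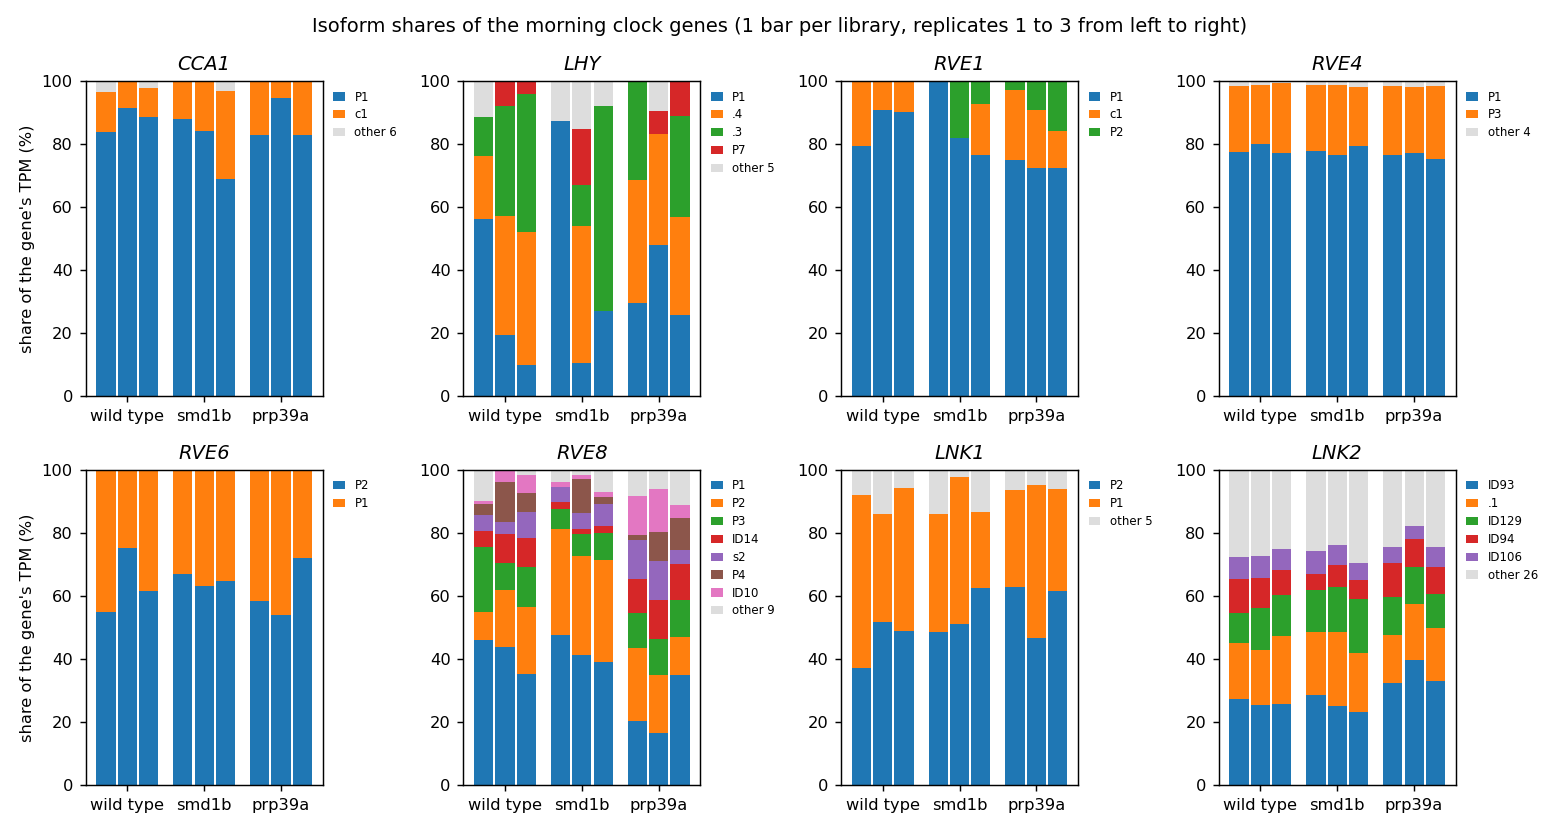
Share of each gene's TPM (percent, vertical axes from 0 to 100) held by its isoforms with a mean share over 5%, with the others in grey, 1 bar per library in the order of replicates 1 to 3. RVE4 shows nearly the same mix in every bar, LHY differs from bar to bar within a genotype, and RVE8 has less of isoform P1 in prp39a and more of P2 in smd1b.

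Other clock genes were taken from 4 lists. Of all tested genes, limma called 3.57% higher and 3.06% lower in smd1b, and 1.73% and 2.39% in prp39a. Between the mutants it called 6.39% higher in prp39a and 14.7% lower. An unadjusted p under 0.05 was found for 23.4% in smd1b, 23.7% in prp39a and 36.7% between the mutants. List counts were not tested against these shares. Of 14 daytime and evening genes, all tested, PRR3 and GI rose in smd1b and 0 fell, and 6 had an unadjusted p under 0.05. In prp39a 0 passed, and 2 had an unadjusted p under 0.05. GI, a regulator of flowering and of protein turnover in the clock, had 36.2, 34.5 and 33.1 TPM in the wild type and 47.5, 49.5 and 49.8 TPM in smd1b (log2 fold change 0.50 ± 0.0893 SE, adjusted p = 0.0164). PRR3, a pseudo-response regulator that stabilises TOC1, had 20.6, 23.7 and 22.3 TPM in the wild type and 29.5, 35.0 and 33.7 TPM in smd1b (0.55 ± 0.0923 SE, adjusted p = 0.0124). In both, every smd1b library was above every wild-type library. The call for GI was lost without wild-type replicates 2 (adjusted p = 0.051) and 3 (0.0607) and without smd1b replicates 2 (0.055) and 3 (0.0701), and that for PRR3 without smd1b replicate 3 (0.0591). Direct targets of RVE8, PRR5 and TOC1, did not pass in smd1b (adjusted p = 0.541 and 0.208). Between the mutants GI, PRR3 and PRR7 were lower in prp39a and 0 of the 14 were higher. PRR7, a daytime repressor of CCA1 and LHY, had 76.9 to 82.1 TPM in the wild type, 93.0 to 100.1 TPM in smd1b and 53.3 to 72.1 TPM in prp39a (prp39a against smd1b −0.58 ± 0.103 SE, adjusted p = 0.00665). The median log2 fold change of this list was 0.18 in smd1b and −0.03 in prp39a, where that of all tested genes was 0.02 and −0.07.

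Of 7 further REVEILLE and LNK genes, 5 were tested; RVE3 and RVE7L had a mean under 1 TPM. LNK4, a family member of LNK1 and LNK2, was the call in smd1b, and 0 passed in prp39a, where 1 had an unadjusted p under 0.05. It had 21.9, 19.5 and 17.7 TPM in the wild type, 10.6 ± 0.544 TPM in smd1b and 14.1 to 19.6 TPM in prp39a, and it fell in smd1b (−0.86 ± 0.128 SE, adjusted p = 0.00729) in all 17 alternatives. LNK3 had 3.80 ± 0.565 TPM in the wild type, 2.96 ± 0.768 TPM in smd1b and 4.58 ± 0.511 TPM in prp39a. Between the mutants LNK4 (0.56 ± 0.128 SE, adjusted p = 0.0178) and LNK3 (0.58 ± 0.174 SE, adjusted p = 0.0447) were higher in prp39a. LNK4 was lost there without smd1b replicate 3 (0.06495), and LNK3 without any 1 of 7 libraries (0.0558 to 0.135), keeping its call without wild-type replicate 2 and smd1b replicate 3.

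Of 14 output genes 13 were tested, with CO under the level filter. None passed in smd1b, where 4 had an unadjusted p under 0.05, and 1 rose in prp39a. This was PORA, an enzyme of chlorophyll synthesis whose gene RVE1 is known to activate, with 13.0, 10.4 and 15.9 TPM in the wild type, 7.15, 11.9 and 9.47 TPM in smd1b and 25.7, 21.9 and 22.1 TPM in prp39a. Every prp39a library was above every other (0.82 ± 0.188 SE against wild type, adjusted p = 0.0454; 1.27 ± 0.188 SE against smd1b, adjusted p = 0.00343). The call against wild type was made in 8 of 17 alternatives. It was lost with no TPM filter (0.0804), with a prior without trend (0.0559) and without any 1 of 6 libraries: wild-type replicates 1 (0.121) and 2 (0.147), smd1b replicate 3 (0.0779) and prp39a replicates 1 (0.141), 2 (0.0924) and 3 (0.0685). The call against smd1b held in all 17 alternatives. Its upstream stretch above carries an evening element. So does the window of COL2, another gene of this list, whose change in prp39a against wild type did not pass (−0.05 ± 0.116 SE, adjusted p = 0.831). Between the mutants CDF1, CDF3, COL2, PORA and the light-harvesting gene LHCB1.1 were higher in prp39a and COL1 lower. Apart from PORA and LHCB1.1 these calls were lost without 6 or more single libraries each, and that of LHCB1.1 without smd1b replicate 3 (0.0508).

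Of 8 anthocyanin genes, a pathway that RVE8 and the LNK proteins influence, 7 were tested. The MYB regulators PAP1 (2.24 ± 0.287 to 5.61 ± 1.44 TPM, adjusted p = 0.0285) and PAP2 (2.595 ± 0.988 to 5.77 ± 0.946 TPM, adjusted p = 0.031) rose in smd1b, and 0 passed in prp39a, with 2 at an unadjusted p under 0.05. The 5 enzyme genes tested did not pass against wild type in either mutant. PAP1 lost its call without wild-type replicates 1 (0.0887), 2 (0.0615) and 3 (0.0873) and smd1b replicates 1 (0.0655) and 2 (0.0887), and PAP2 without wild-type replicate 3 (0.0501) and smd1b replicates 2 (0.0836) and 3 (0.12). With no TPM filter both were lost (0.0509 and 0.0548), and PAP2 also in the fit of the 6 libraries alone (0.0533). Between the mutants PAP1 and LDOX, an enzyme late in the pathway, were lower in prp39a. PAP1 lost that call without smd1b replicate 1 (0.0522), and LDOX without any 1 of 6 libraries (0.0578 to 0.133).

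**Figure D4:**
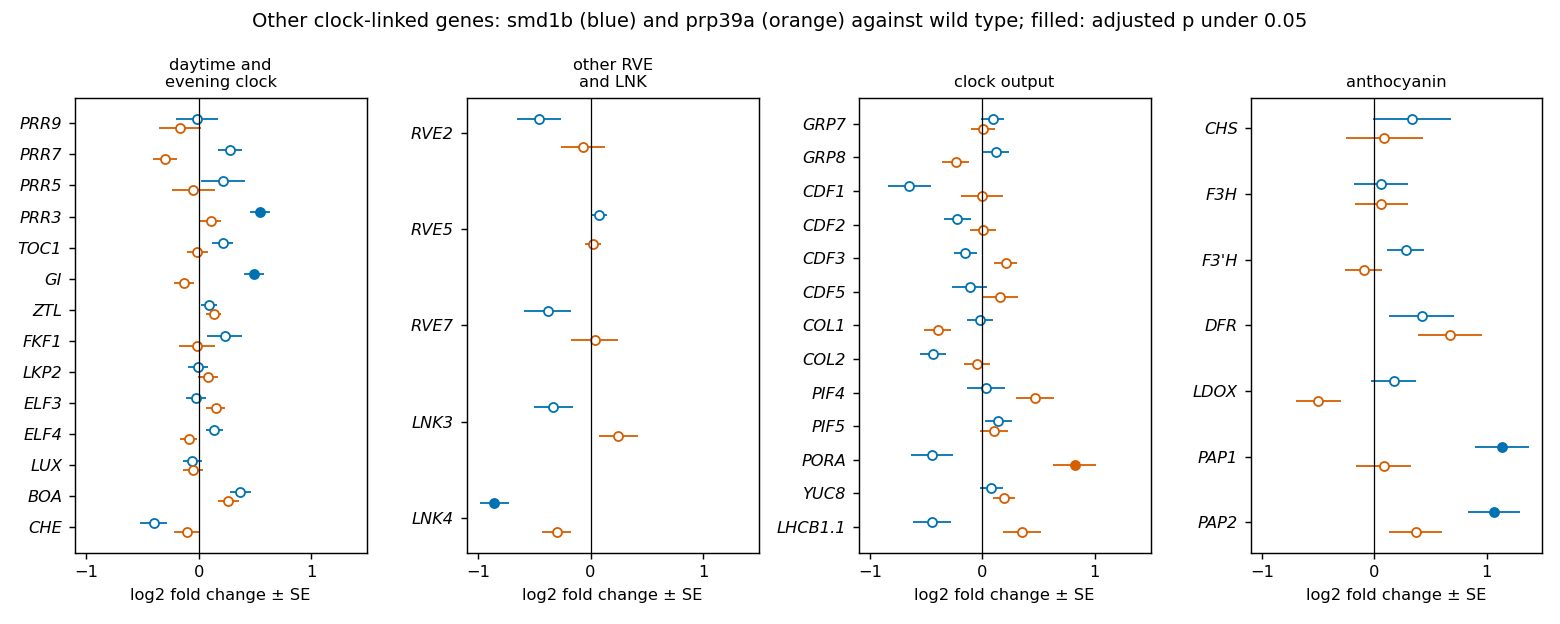
Log2 fold change ± SE of the other clock-linked genes against wild type (horizontal axes), smd1b in blue and prp39a in orange, by list. Filled points passed an adjusted p of 0.05: PRR3, GI, LNK4, PAP1 and PAP2 in smd1b and PORA in prp39a.

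Genes with profiles most like CCA1 were ranked by the root mean square difference between centred log2(TPM + 0.5) values over the 9 libraries, among 16061 genes averaging 5 TPM or more. The closest was LNK4, at 0.114 on the log2 scale. After it came AT5G43180 (0.148), annotated as a putative transmembrane protein, HOL2 (0.159), a methyltransferase, AT5G38940 (0.168), a cupin-type protein, and CYP79B3 (0.181), an enzyme of indole glucosinolate synthesis. HOL2 had 19.6 ± 2.1 TPM in the wild type, 10.3 ± 0.487 TPM in smd1b and 12.8 ± 1.86 TPM in prp39a. The closest to LHY were GRF11, a 14-3-3 protein (0.0924), LUP1, a lupeol synthase (0.104), CBL10, a calcium sensor (0.112), the aquaporin PIP2E (0.116) and AT5G57565 (0.117). GRF11 had 30.1 ± 1.07, 24.3 ± 3.43 and 35.9 ± 3.75 TPM in wild type, smd1b and prp39a. These are descriptions of likeness over the same 9 libraries.

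**Figure D5:**
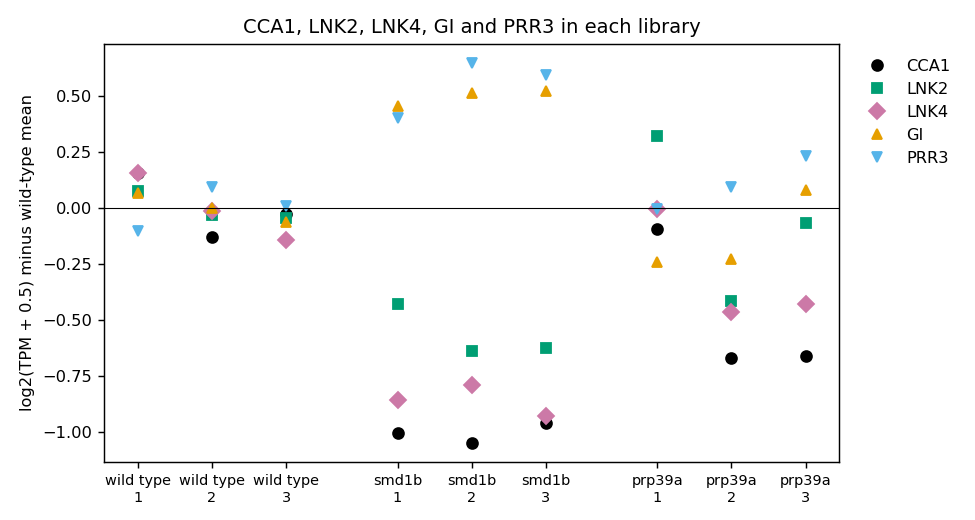
Log2(TPM + 0.5) of CCA1, LNK2, LNK4, GI and PRR3 in each library, less the gene's mean in wild type (vertical axis). CCA1, LNK2 and LNK4 lie below 0 and GI and PRR3 above 0 in every smd1b library, and in prp39a CCA1 and LNK4 lie nearer to wild type in replicate 1 than in replicates 2 and 3.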

How the data were processed

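Polyadenylated RNA of 9 Arabidopsis seedling libraries was sequenced; per the labels' protocols the kit was stranded. The authors deposited TPM per isoform in columns named after kallisto, per the file headers. For its version and annotation, no source used here gives any. The submitters' processing notes name TAIR10, Trimmomatic, TopHat2, featureCounts and DESeq2 without roles. The table has 15 columns, and 6 that match no sample were not used. Columns named col, smdb1 and prp39 were taken as wild type, smd1b and prp39a by number. Each column sums to 1000000, so depth is unknown and no count test was run. No pair of libraries was identical.

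Isoform TPM were summed per gene. The 20585 genes averaging 1 TPM or more were tested on log2(TPM + 0.5), which understates fold changes of low genes. Isoforms with a mean share of 0.05 to 0.95 (22040) were tested on log2 of isoform over other isoforms of the gene, each with 0.5 TPM added. Linear models over all 9 libraries were fitted with limma 3.58.1 in R 4.3.3 (eBayes with trend), two-sided, with Benjamini-Hochberg adjustment over all features of a comparison at 0.05, and tested on simulated data. Replicates are called biological in the labels. Alternatives were other pseudocounts, filters, size factors, a prior without trend, the 6 libraries alone, a replicate block, and leaving out each library. Text names all members, list genes that passed (up to 8 per list), leading or differing isoforms, and 5 genes each closest to CCA1 and LHY. Isoforms with an unadjusted p under 0.05 or groups without overlap were picked after their values were seen. The members and lists were chosen with earlier results of these data known. All 8 members are named in the RefSeq gene table of TAIR10.1.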

Additional observations from a re-analysis of the deposited data

Results flagged for a closer look

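The difference between the effects of the 2 mutations was past the test at 5 genes, by the direct comparison of prp39a with smd1b (limma, adjusted p under 0.05, 3 libraries each). CCA1 (log2 difference 0.53), RVE1 (0.73), RVE4 (0.42) and LNK2 (0.51) were higher in prp39a, and LNK1 (−0.52) was lower, and in each of these 5 genes the 3 libraries of prp39a did not overlap those of smd1b. RVE4 passed in all 17 alternatives. The others were lost in several of them, mostly with log2 differences of similar size, and without prp39a replicate 1 CCA1 was at 0.34 and LNK2 at 0.32. Without prp39a replicate 1, or without smd1b replicate 2, RVE4 alone passed. The share of all tested genes that passed was 21.1%, and the share whose libraries did not overlap was 39.7%.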

How the results depend on the processing

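CCA1 in smd1b passed in all 17 alternatives (log2 fold change −1.08 to −0.92, adjusted p from 0.00259 to 0.0384). The count of members called in smd1b against wild type was 2 in a fit of the 6 libraries alone and with the replicate block, and 1 to 2 when single libraries were left out, LNK2 being the addition. In prp39a against wild type it was 0 to 1 without single libraries. Between the mutants it was 3 with no TPM filter, 2 in a fit of the 6 libraries alone, 4 with the replicate block and 1 to 4 without single libraries. Member isoforms called between the mutants were 1 with a pseudocount of 0.1, 2 with a pseudocount of 1 and 0 to 1 without single libraries. In prp39a against wild type they were 0 to 1 without single libraries. With size factors the LNK2 change in prp39a against wild type turned to 0.0193 and RVE6 between the mutants to 0.0575, and LNK2 in prp39a ranged from −0.24 to 0.13 without single libraries. Between the mutants CCA1 was lost with no TPM filter (0.0689) and in the 6 libraries alone (0.0767), LNK2 in these (0.0776 and 0.0919) and with a prior without trend (0.0594), and RVE1 in the 6 libraries alone (0.0504) and with the replicate block (0.0528). PORA in prp39a was lost with the block (0.0954). The calls of CDF1, CDF3, COL1, COL2, LNK3 and LDOX between the mutants did not hold in either of these 2 fits (no TPM filter, 6 libraries alone), and that of LHCB1.1 with no TPM filter. The cause was not tested. Of 81 isoform changes tested, 31 turned sign in at least 1 alternative, 0 of them with an unadjusted p under 0.05. Same-numbered libraries did not deviate together (correlations over genes from −0.40 to 0.29), so the replicate number was not taken as a pairing. Differently numbered libraries of different genotypes had correlations from −0.44 (wild-type replicate 3, smd1b replicate 1) to 0.47 (wild-type replicate 2, prp39a replicate 3). What such libraries share was not tested, and no term for it was fitted. A gene filter of 5 TPM left LHY, RVE1 and RVE8 untested. Depth is unknown, so differences of low genes such as LHY may go undetected.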
